A study of Mus musculus with 16 samples.

Results

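Macrophages from visceral fat (VAT) and subcutaneous fat (SAT) of control mice were compared on 8 of the 16 arrays of the study, 4 for each depot. The members are the arrays whose labels name the wild-type genotype, and the difference is given throughout as VAT minus SAT. The mice, called wild type in the labels, carry Sucnr1 flox/flox alleles, that is, a succinate receptor gene flanked by recombination sites, and their labels name no Cre recombinase. The remaining 8 arrays hold the same depots from LysM-Sucnr1-/- mice, in which Cre under the lysozyme M promoter deletes Sucnr1 in myeloid cells, and they enter here only through the shared estimate of variance and where the genotypes are set side by side. All animals were 19 to 21 weeks old and carry the label NCD, which is not spelled out there. The titles of the wild-type samples call them untreated, and those of the knockout samples say treated with KO-LysM. Each array holds a pool, numbered 1 to 4 within a group, and the number of animals in a pool is not given in the sources used here. Pools 1 and 2 belong to day 1 and pools 3 and 4 to day 2. Fat was digested with collagenase, red cells were lysed and cells were taken with CD11b beads, although a second label calls them F4/80+; RNA of 300000 cells went through 24 cycles of cDNA amplification. P-values therefore measure the spread between pools. That spread is shared over the pools of all 4 groups and is not that of the wild-type pools alone.

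Adipose tissue macrophages clear dying adipocytes and apoptotic debris, take up lipid, and secrete chemokines and growth factors. Long-lived resident macrophages sit along vessels and carry receptors such as the folate receptor Folr2 and the lectin ficolin A (Fcna), while monocyte-derived cells add to them. Subcutaneous fat lies under the skin beside thin sheets of muscle and, in the mouse, beside lymph nodes, and visceral fat lies in the abdomen beside the gut and reproductive tract. Stromal progenitors in both depots make matrix proteins, Cxcl12 and other factors.

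The values are log2 probe set summaries, so a difference of 1 is a 2-fold change. Correlations across probe sets, which are not independent replicates, were 0.986 to 0.992 between SAT arrays and 0.942 to 0.990 between VAT arrays, lowest between pools 1 and 4. The knockout arrays, which enter the shared estimate of variance, correlated more closely, at 0.989 to 0.996 in SAT and 0.988 to 0.995 in VAT. For genes that vary most between the wild-type VAT pools, the SE and p of the main fit can therefore be too small. The spread of values within an array, taken as their interquartile range, was 2.12 to 2.29 in SAT and 2.01, 2.15, 2.50 and 2.54 in VAT pools 1 to 4, so the VAT arrays of day 2 stood apart from those of day 1. The array number limits the precision of every value here. The background level was set at 4.78, the 95th percentile of the means of 41 olfactory receptor genes. Sucnr1 lay below it in both depots, at 3.54 ± 0.03 in SAT and 3.52 ± 0.12 in VAT (SD, n = 4), so it does not check the genotype.

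The depot differences ran against those on the knockout arrays for many genes. Of the genes that passed on the wild-type arrays, 320 of 486 had the opposite sign on the knockout arrays, and of the 123 that passed in both genotypes 100 moved in opposite directions. The share of opposite signs over all 17097 genes is not given here, so the 320 have no base to be read against. Seminal vesicle secretion genes, which belong to a gland beside the epididymal fat of males, passed as lower in VAT than in SAT for 8 of 8 measured genes on the knockout arrays (median log2 change -5.38), where 2.39% of all genes fell. On the wild-type arrays the means of 7 of the 8 lay below background in both depots, so their changes are not exact. SAT pool 2 alone read above background for Svs4 (7.30) and Svs6 (5.085). By the limma test 0 of the 8 passed or had an unadjusted p under 0.05. The other 23 of the 123 moved in the same direction. Why the genotypes differ was not tested. Whether the depot labels of each genotype are as meant cannot be told from these values. Every direction below is that of the labels on the wild-type arrays.

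The defining macrophage markers were well above background in both depots, had negative changes and did not pass the threshold. Cd68, a lysosomal glycoprotein of macrophages, read 11.38, 11.46, 11.56 and 11.47 in SAT pools 1 to 4 and 10.85, 11.10, 11.15 and 11.48 in VAT pools 1 to 4. Adgre1, which encodes F4/80, read 8.63, 8.98, 9.04 and 8.77 in SAT and 7.92, 8.55, 7.78 and 8.84 in VAT. The VAT values of both genes reached up into the SAT range, and the changes were -0.32 ± 0.10 (± SE; limma adjusted p = 0.116) for Cd68 and -0.58 ± 0.21 (adjusted p = 0.176) for Adgre1. Csf1r, the receptor for the macrophage growth factor Csf1, changed by -0.30 ± 0.15 (adjusted p = 0.355) and Itgam, which encodes CD11b, by -0.24 ± 0.19 (adjusted p = 0.63). Lyz2, the lysozyme gene, read 11.12 ± 0.21 in SAT and 10.57 ± 0.15 in VAT (SD, n = 4) and missed the threshold (adjusted p = 0.0516). With the interquartile range of the array as a term Cd68 (adjusted p = 0.0157), Csf1r (adjusted p = 0.0129) and Lyz2 (adjusted p = 0.0361) passed as lower in VAT.

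Of 17097 genes tested, 486 (2.84%) passed at a limma adjusted p under 0.05, 260 (1.52%) higher and 226 (1.32%) lower in VAT. A change of at least 2-fold was found for 129 of them, 70 higher and 59 lower. The values of the depots did not overlap for 321 of the 486, against 651 (3.81%) of all genes. The median change over all genes was -0.02. The genes of the text passed at this threshold wherever they are said to have risen or fallen. Fitted to the 8 wild-type arrays alone, with no knockout array behind the variance, 60 genes (0.351%) passed, 17 higher and 43 lower, and all 60 are among the 486. The call was kept with each of the 8 arrays left out in turn by 187 genes and lost at least once by 299; 3 of the calls were lost without VAT pool 1 and 268 without VAT pool 3. The count itself became 231 without VAT pool 3, 249 without SAT pool 3 and 1711 without VAT pool 1. With the interquartile range of the array as a term 1502 genes (8.79%) passed, 507 higher and 995 lower, and all 486 are among them.

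**Figure D1:**
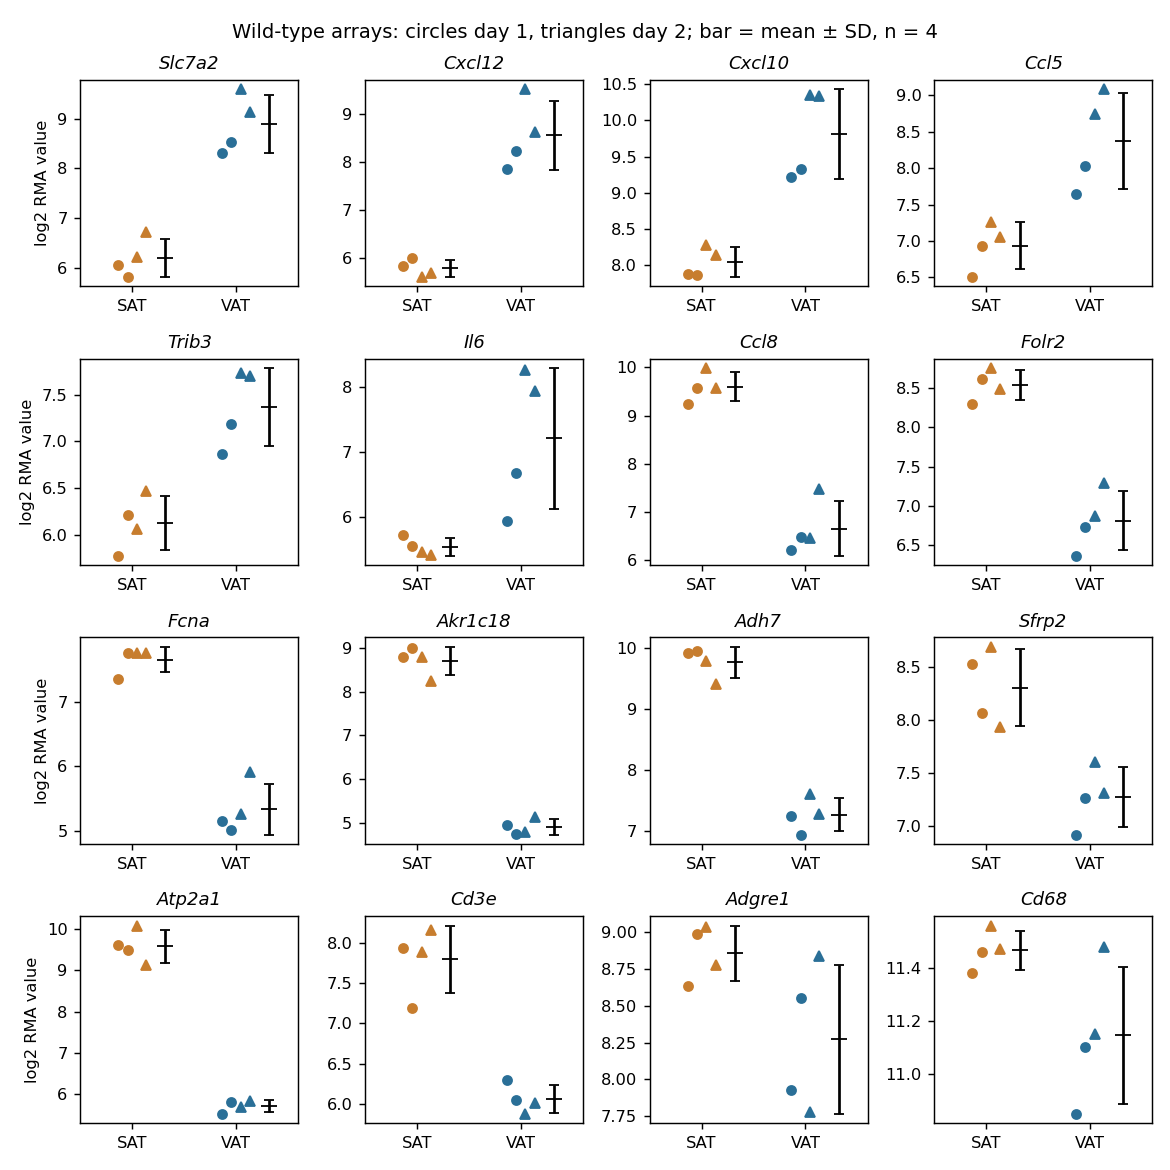
Log2 RMA values of 16 genes on the 8 wild-type arrays, SAT in orange and VAT in blue, with circles for day 1, triangles for day 2 and the mean ± SD of 4 arrays as a bar. Slc7a2, Cxcl12, Cxcl10, Ccl5, Trib3 and Il6 lie higher in every VAT pool than in any SAT pool, Ccl8, Folr2, Fcna, Akr1c18, Adh7, Sfrp2, Atp2a1 and Cd3e lie lower, and Adgre1 and Cd68 overlap.

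Genes of resident macrophages were among the falls in VAT. Of 26 measured resident macrophage genes, 8 fell and 0 rose, with a median change of -0.37 (-0.24 without VAT pool 3). Ccl8, a chemokine for monocytes and T cells made by resident macrophages, read 9.25, 9.58, 9.99 and 9.59 in SAT pools 1 to 4 and 6.21, 6.48, 6.46 and 7.49 in VAT pools 1 to 4. All 4 SAT pools lay above all VAT pools, and Ccl8 fell by 2.94 ± 0.20 (adjusted p = 7.05e-07), the seventh of the falls in size. Folr2 read 8.30, 8.62, 8.76 and 8.48 in SAT and 6.37, 6.74, 6.87 and 7.29 in VAT, without overlap, a change of -1.73 ± 0.13 (adjusted p = 1.88e-06). Fcna, a soluble lectin that starts the lectin pathway of complement, read 7.36, 7.75, 7.75 and 7.75 in SAT and 5.15, 5.01, 5.26 and 5.90 in VAT and changed by -2.32 ± 0.16 (adjusted p = 7.05e-07). F13a1, the A subunit of coagulation factor XIII, changed by -1.55 ± 0.24 and Fxyd2, a small regulator of the sodium pump, by -0.82 ± 0.14 (its other 3 probe sets at -0.36 to -0.01). Ccl6, Pf4 and Clec10a made up the 8, at -0.67, -0.49 and -0.89; the call of Pf4 was lost without VAT pool 3 (-0.41) and that of Clec10a without SAT pool 1 (-0.87), SAT pool 2 (-0.81), SAT pool 3 (-0.85) or VAT pool 3 (-0.78). Ccl8, Folr2 and Fcna also passed on the wild-type arrays alone (adjusted p = 0.00154, 0.00404 and 0.000966).

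Complement and Fc receptor genes also held falls. Of 17 complement genes 4 fell and 0 rose (median -0.24, and -0.10 without VAT pool 1). On day 1 alone 5 fell and 0 rose (median -0.52), and on day 2 alone 2 fell and 4 rose (median -0.05). Over all 17097 genes, 167 fell and 32 rose on day 1 alone, and 1645 fell and 2577 rose on day 2 alone. Of 19 Fc receptor and phagocytosis genes 4 fell and 0 rose (median -0.27), the 4 becoming 7 without VAT pool 4. C4b, which is cleaved on the way to the C3 convertase, read 9.02, 9.18, 9.14 and 8.40 in SAT and 6.66, 7.13, 7.98 and 7.35 in VAT, all VAT pools lying lower, and changed by -1.66 ± 0.23 (adjusted p = 0.000953). Cfp, properdin, which stabilises the alternative convertase, changed by -1.18 ± 0.14 (adjusted p = 0.000324). C5ar1, the receptor for the C5a fragment, changed by -0.73 ± 0.14 (adjusted p = 0.00906). C1qc, a chain of the recognition molecule C1q, changed by -0.99 ± 0.22 with overlapping depots, and its call was lost without SAT pool 2 (-0.81), SAT pool 3 (-0.94) or VAT pool 3 (-0.89). Among receptors for antibody, the activating Fcgr4 read 6.55, 6.64, 6.84 and 6.74 in SAT and 5.83, 5.88, 5.67 and 5.64 in VAT and changed by -0.94 ± 0.11 (adjusted p = 0.000329), and Fcgr3 changed by -0.84 ± 0.16 (adjusted p = 0.0102). The fungal pattern receptors Clec4n (dectin-2) and Clec7a (dectin-1) changed by -0.94 ± 0.14 (adjusted p = 0.00162) and -0.86 ± 0.21 (adjusted p = 0.038); the latter call was lost without SAT pool 2 (-0.63), SAT pool 3 (-0.83), SAT pool 4 (-0.92), VAT pool 2 (-0.87) or VAT pool 3 (-0.87).

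Of 19 core identity genes 18 had a negative change and 1 a positive one (median -0.32). The mean of the list was 8.38 to 8.79 in the SAT pools and 7.80, 8.14, 8.15 and 8.70 in VAT pools 1 to 4, so the depots overlapped through VAT pool 4 alone. With the interquartile range of the array as a term 10 of the 19 core genes and 11 of the 26 resident genes fell, and the difference between the lists was not tested. By the limma test without that term 2 core genes passed, C1qc and Laptm5, a lysosomal membrane protein of blood cells (-0.88 ± 0.16, adjusted p = 0.00869). On the knockout arrays, where the resident genes had a median change of 0.05, the core genes had one of -0.53 and 9 fell, against 2.39% of all genes. In a bulk sample, fewer cells of a type and less RNA per cell cannot be told apart. The lipid-associated macrophage list, genes of lysosomal and lipid handling, had 4 falls and 1 rise among 21 measured (median -0.25, and -0.40 without VAT pool 4). Gpnmb, a glycoprotein of lipid-laden macrophages, read 10.68, 10.99, 11.08 and 10.94 in SAT and 9.82, 10.18, 10.08 and 10.26 in VAT and changed by -0.84 ± 0.11 (adjusted p = 0.000648). The cathepsins Ctsl and Ctsd changed by -0.56 ± 0.08 and -0.49 ± 0.12, and the fatty acid binding protein Fabp5 by -0.54 ± 0.14, while Fabp4, the form abundant in adipocytes, rose by 0.91 ± 0.19 (its other 2 probe sets at 0.07 and 0.90). The call of Ctsl held without any 1 array, that of Ctsd was lost without SAT pool 1 (-0.49), 2 (-0.42) or 3 (-0.51) or VAT pool 2 (-0.54) or 3 (-0.49), that of Fabp4 without SAT pool 1 (0.86) or VAT pool 2 (0.75), and that of Fabp5 without any array other than VAT pool 4 (-0.60 to -0.43).

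Of 12 MHC class II genes, which load and present peptides to T cells, 2 fell and 0 rose (median -0.14). These were H2-DMb2, a chain of the peptide editor H2-DM (-0.82 ± 0.12, adjusted p = 0.00194), and H2-Ob, a chain of its inhibitor found mainly in B cells (-0.86 ± 0.19, adjusted p = 0.0228) rather than the peptide-presenting molecules themselves. H2-Ob lost its call without SAT pool 1 (-0.87), 3 (-0.80) or 4 (-0.80) or VAT pool 3 (-0.82) or 4 (-0.70). B cell markers also fell in VAT, as given below, and their part in the H2-Ob value was not tested. Of 13 monocyte genes 2 fell, the integrin chain Itgal (-0.74 ± 0.14, its other probe set at -0.09) and Plac8 (-0.91 ± 0.21), and 1 rose, the proteoglycan Vcan (0.64 ± 0.11, with 1 of its 4 other probe sets at -0.08). Plac8 lost its call without SAT pool 1 (-0.89), 2 (-0.78) or 3 (-0.94) or VAT pool 2 (-0.80). Of 18 genes of peritoneal macrophages 3 fell, C4b, the protease inhibitor Slpi (-1.24 ± 0.16, adjusted p = 0.000678) and the B cell chemokine Cxcl13, and 2 rose, the transcription factor Gata6 (0.59) and the matrix protein Ltbp1 (1.20). Ltbp1 lost its call without SAT pool 1 (1.21) or 4 (0.96) or VAT pool 2 (1.20), 3 (0.94) or 4 (1.15).

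**Figure D2:**
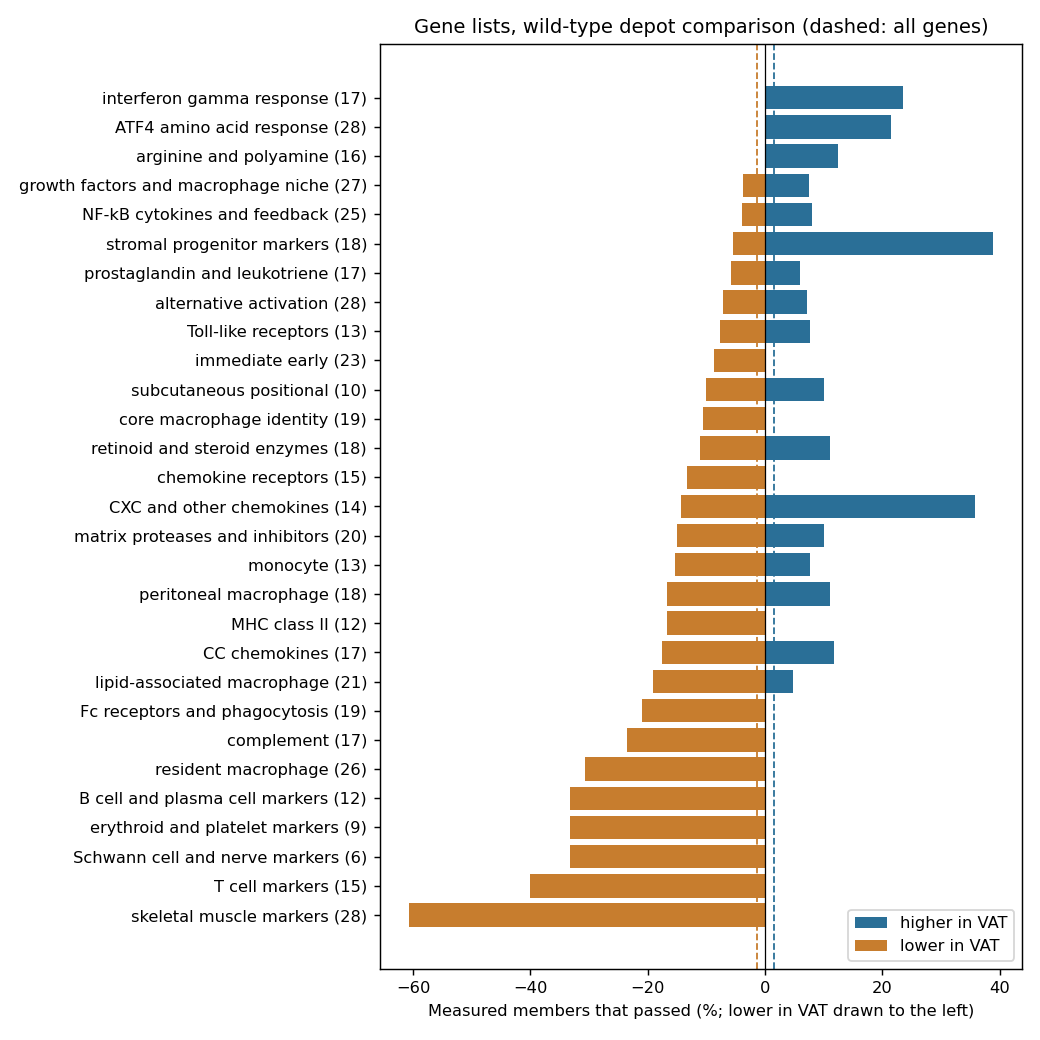
Share of the measured members of each gene list that passed, in percent, drawn to the right where higher in VAT and to the left where lower, for the lists with at least 2 such genes and with the number measured in brackets; dashed lines mark 1.52% and 1.32%, the shares of all genes. Skeletal muscle markers (17 of 28) reach farthest to the left, followed by T cell markers (6 of 15), then B cell (4 of 12), erythroid and platelet (3 of 9) and Schwann cell markers (2 of 6) at equal shares and resident macrophage genes (8 of 26), and stromal progenitor markers (7 of 18) and CXC chemokines (5 of 14) far to the right.

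Chemokines changed in both directions. In the list of CXC and other chemokines 5 of 14 rose and 2 fell (median 0.17, and 0.10 without VAT pool 4), and in that of CC chemokines 2 of 17 rose and 3 fell (median -0.08). Cxcl12, which holds leukocytes and stem cells through Cxcr4, had the largest rise of all named genes. It read 5.83, 5.99, 5.60 and 5.68 in SAT pools 1 to 4 and 7.85, 8.22, 9.51 and 8.62 in VAT pools 1 to 4, a change of 2.77 ± 0.23 (adjusted p = 5.36e-06) with no overlap, and the other 2 probe sets of the gene changed by 1.48 to 2.36. Cxcl10, a ligand of Cxcr3 on activated T cells, read 7.87, 7.86, 8.28 and 8.14 in SAT and 9.22, 9.32, 10.36 and 10.34 in VAT and changed by 1.77 ± 0.14 (adjusted p = 2.17e-06). Cxcl1 and Cxcl5, which attract neutrophils, changed by 1.01 ± 0.17 (adjusted p = 0.00387) and 0.73 ± 0.13 (adjusted p = 0.00689). Cx3cl1, the membrane-bound ligand of the monocyte receptor Cx3cr1, read 7.13, 6.67, 6.77 and 6.73 in SAT and 7.57, 7.48, 7.40 and 7.53 in VAT and changed by 0.67 ± 0.10 (adjusted p = 0.00226), its other probe set at 0.19. Cxcl13, which draws B cells into follicles, went the other way, from 6.86, 6.95, 7.49 and 7.64 in SAT to 6.23, 6.45, 5.66 and 6.03 in VAT (-1.14 ± 0.17, adjusted p = 0.0021). The other fall of the list was Pf4, given above, whose call was lost without VAT pool 3.

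Among CC chemokines, Ccl5 (RANTES), a chemokine that attracts T cells and monocytes, read 6.51, 6.93, 7.26 and 7.05 in SAT and 7.65, 8.02, 8.74 and 9.09 in VAT and changed by 1.44 ± 0.17 (adjusted p = 0.000324). Every VAT pool lay above every SAT pool. Ccl2, the main monocyte attractant, read 10.01, 10.30, 10.43 and 10.05 in SAT and 10.41, 10.70, 11.40 and 11.28 in VAT, with the lowest VAT pool just below the highest SAT pool, and changed by 0.75 ± 0.15 (adjusted p = 0.0124). Besides Ccl8, the constitutive macrophage chemokines Ccl6 (-0.67 ± 0.13) and Ccl9 (-0.56 ± 0.12) fell, with VAT pool 4 of each standing up in the SAT range; the Ccl9 call was lost without SAT pool 2 (-0.52), SAT pool 3 (-0.54) or VAT pool 3 (-0.44). Of 15 chemokine receptors 2 fell, Ccr6 (-0.46 ± 0.11), which was lost without any array except SAT pool 2 or VAT pool 1 (-0.46 to -0.39), and Cxcr6 (-0.33 ± 0.07), whose mean lay below background in both depots and whose call was lost without SAT pool 1 or 4 or VAT pool 2 or 3 (-0.33 to -0.29).

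Inflammatory cytokine genes moved little as a list over both days together and much in a few members. Of 25 NF-kB driven cytokines and feedback genes 2 rose and 1 fell (median 0.07). The median was -0.18 on day 1 and 0.28 on day 2. Il6 read 5.73, 5.56, 5.46 and 5.42 in SAT pools 1 to 4 and 5.95, 6.68, 8.26 and 7.94 in VAT pools 1 to 4. The VAT pools of day 2 were far above those of day 1. Il6 changed by 0.67 on day 1 and 2.66 on day 2 (limma adjusted p of the difference = 0.00448). Over both days the change was 1.66 ± 0.30 (adjusted p = 0.00771, but 0.182 on the wild-type arrays alone). Icam1, the adhesion molecule bound by leukocyte integrins, read 7.42, 7.46, 7.80 and 7.88 in SAT and 7.88, 8.88, 9.81 and 9.47 in VAT and changed by 1.37 ± 0.21 (adjusted p = 0.002). Saa3, an acute-phase apolipoprotein, fell from 7.13, 7.98, 8.42 and 8.57 in SAT to 6.35, 6.04, 5.65 and 5.04 in VAT (-2.26 ± 0.32, adjusted p = 0.00101). Of 13 Toll-like receptors Tlr3, a sensor of double-stranded RNA, rose by 0.73 ± 0.16 (its other probe set at 0.02) and Tlr9, a sensor of bacterial DNA, changed by -0.56 ± 0.14. Both calls were lost without several arrays, that of Tlr3 without SAT pool 1 (0.72), 3 (0.70) or 4 (0.71) or VAT pool 2 (0.69) or 3 (0.56), and that of Tlr9 without SAT pool 2 (-0.48) or 3 (-0.53) or VAT pool 2 (-0.57) or 3 (-0.49).

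Interferon response genes leaned upward in VAT. Of 17 genes induced by interferon gamma 4 rose and 0 fell (median 0.15, and 0.07 without VAT pool 4), and of 16 type I interferon genes 1 rose and 0 fell (median 0.34, with 14 of 16 changes positive). By day, the type I median was -0.00 on day 1 and 0.60 on day 2, and the interferon gamma median 0.01 and 0.36. On the knockout arrays 10 of the 16 type I genes and 8 of the 17 interferon gamma genes fell (medians -0.51 and -0.58), against 2.39% of all genes. The guanylate-binding proteins Gbp2 and Gbp3, GTPases that attack the vacuoles of intracellular microbes, read 6.61, 6.67, 7.34 and 6.82 in SAT and 7.20, 7.58, 8.30 and 8.48 in VAT for Gbp2, and 4.66, 5.06, 5.10 and 4.70 in SAT and 5.30, 5.79, 6.99 and 6.95 in VAT for Gbp3. Gbp2 changed by 1.03 ± 0.16 (adjusted p = 0.00276) with overlapping depots and Gbp3 by 1.38 ± 0.22 (adjusted p = 0.00317) without overlap. Iigp1, another interferon-induced GTPase, changed by 0.94 ± 0.19 (adjusted p = 0.0171) and lost its call without SAT pool 3 (0.84) or VAT pool 3 (0.80). Ifit3, an antiviral effector, changed by 0.38 ± 0.08 (adjusted p = 0.0162) and lost its call without VAT pool 2 (0.34) or 3 (0.36). Of the 4 that passed in the interferon gamma list, Cxcl10 passed on the wild-type arrays alone.

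The promoters of Cxcl10, Gbp2, Gbp3, Il6 and Cxcl1 are shown because these genes rose together and are textbook targets of interferon-activated factors or of NF-kB. Each is the 250 bases before an annotated start, read toward the gene, from RefSeq (GRCm38.p6). Gbp3 has 2 such windows, and the window shown was picked because it holds a match. For every gene, a window without a match would not have been shown. Capitals mark matches on either strand to an interferon-stimulated response element, searched as TTTC followed by any 2 bases and TTTC, or to an NF-kB site, searched as GGG followed by any 2 bases, TT, any base and CC; neither pattern contains the other.
Cxcl10, chr5:92348890-92349139, minus strand: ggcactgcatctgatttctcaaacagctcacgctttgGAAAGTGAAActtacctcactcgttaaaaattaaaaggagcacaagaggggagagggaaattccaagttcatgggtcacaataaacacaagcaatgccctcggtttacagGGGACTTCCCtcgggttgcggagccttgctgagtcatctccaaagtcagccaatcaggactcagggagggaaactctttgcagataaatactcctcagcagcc
Gbp2, chr3:142620413-142620662, plus strand: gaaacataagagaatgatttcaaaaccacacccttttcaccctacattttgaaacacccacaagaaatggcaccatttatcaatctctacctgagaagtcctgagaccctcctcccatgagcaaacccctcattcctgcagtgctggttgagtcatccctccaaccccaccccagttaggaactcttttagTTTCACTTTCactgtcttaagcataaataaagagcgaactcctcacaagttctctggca
Gbp3, chr3:142559794-142560043, plus strand: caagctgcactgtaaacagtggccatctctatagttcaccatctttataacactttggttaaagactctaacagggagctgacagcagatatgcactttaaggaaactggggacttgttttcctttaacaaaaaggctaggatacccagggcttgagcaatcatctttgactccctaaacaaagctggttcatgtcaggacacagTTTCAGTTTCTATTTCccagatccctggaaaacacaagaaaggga
Il6, chr5:30012864-30013113, plus strand: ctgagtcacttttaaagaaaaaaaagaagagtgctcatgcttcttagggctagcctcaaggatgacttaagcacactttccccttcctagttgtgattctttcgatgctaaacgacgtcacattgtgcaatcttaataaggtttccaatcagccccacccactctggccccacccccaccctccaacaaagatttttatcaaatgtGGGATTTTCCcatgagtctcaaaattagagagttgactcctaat
Cxcl1, chr5:90890995-90891244, plus strand: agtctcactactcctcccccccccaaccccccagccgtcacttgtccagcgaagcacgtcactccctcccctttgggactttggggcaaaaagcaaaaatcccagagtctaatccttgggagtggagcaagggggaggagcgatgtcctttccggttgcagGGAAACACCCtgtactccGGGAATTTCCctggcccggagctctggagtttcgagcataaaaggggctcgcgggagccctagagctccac

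The interferon-stimulated pattern starts 213 bases before the start in Cxcl10 and 59 bases before it in Gbp2. In Gbp3 a pair of overlapping matches begins 45 and 39 bases before the start. The NF-kB pattern begins 103 bases before the start in Cxcl10, 44 in Il6, and 89 and 71 in Cxcl1. Over the 13605 measured genes with such a window, 3.09% hold the interferon-stimulated pattern and 5.28% the NF-kB pattern. Among the genes higher in VAT, 9 of 195 (4.62%) and 15 of 195 (7.69%) hold them, and among those lower in VAT 5 of 173 (2.89%) and 12 of 173 (6.94%). The 14 interferon gamma genes with a window include 9 with the interferon-stimulated pattern (3 of the 3 that passed), and the 12 type I genes include 4. The NF-kB pattern was held by 6 of 19 genes of the NF-kB list (1 of the 3 that passed). In the list of CXC and other chemokines 4 of 11 held it (2 of the 6 that passed). A match describes letters in this window and says nothing of binding in these cells.

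Genes of the amino acid response were among the rises in VAT. This programme, run by the factor ATF4 when amino acids are short or proteins misfold, covers amino acid synthesis, transport and its own brakes. Of 28 measured genes 6 rose and 0 fell, 25 had a positive change, and the median was 0.28. It was -0.02 on day 1 and 0.60 on day 2. Trib3, a pseudokinase that feeds back on ATF4, read 5.78, 6.22, 6.06 and 6.47 in SAT and 6.87, 7.19, 7.72 and 7.70 in VAT, every VAT pool above every SAT pool, and changed by 1.24 ± 0.15 (adjusted p = 0.000324; 0.0241 on the wild-type arrays alone). Atf5, a related transcription factor, read 6.72, 6.82, 6.80 and 6.75 in SAT and 7.10, 7.30, 8.01 and 8.19 in VAT and changed by 0.88 ± 0.15 (adjusted p = 0.00602). Chac1, which degrades glutathione, changed by 0.99 ± 0.21 (adjusted p = 0.0184) and rose on the knockout arrays too (1.05, adjusted p = 0.00822). Asns, which makes asparagine, read 7.80, 8.06, 7.95 and 7.28 in SAT and 7.89, 8.80, 9.49 and 9.55 in VAT, so that VAT pool 1 lay inside the SAT range, and changed by 1.16 ± 0.26 (adjusted p = 0.0288). Phgdh, the first enzyme of serine synthesis, changed by 0.49 ± 0.11, and Sesn2, a leucine sensor, by 0.31 ± 0.07. Apart from Trib3 and Atf5 these calls depended on single arrays: Chac1 lost its call without SAT pool 1 (0.96), 3 (0.98) or 4 (0.87) or VAT pool 3 (0.91), Asns without any array except SAT pool 2 or VAT pool 1 (0.92 to 1.22), Phgdh without SAT pool 1 (0.42), 2 (0.48) or 3 (0.51) or VAT pool 4 (0.43), and Sesn2 without any array except VAT pool 1 or 2 (0.29 to 0.32). The count of 6 became 2 without SAT pool 1 or SAT pool 3, 3 without SAT pool 4, VAT pool 3 or VAT pool 4, and 13 without VAT pool 1, where the median was 0.42. In the endoplasmic reticulum chaperone list 1 of 20 rose, Calr (0.52 ± 0.12, adjusted p = 0.03), which lost its call without SAT pool 1 (0.50) or 4 (0.44) or VAT pool 2 (0.54), 3 (0.49) or 4 (0.44).

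The promoters of Asns and Chac1 are shown for the amino acid response element, the composite site of ATF4, searched as TGATGNAA on both strands and set in capitals. Here too, a window without a match would not have been shown.
Asns, chr6:7693210-7693459, minus strand: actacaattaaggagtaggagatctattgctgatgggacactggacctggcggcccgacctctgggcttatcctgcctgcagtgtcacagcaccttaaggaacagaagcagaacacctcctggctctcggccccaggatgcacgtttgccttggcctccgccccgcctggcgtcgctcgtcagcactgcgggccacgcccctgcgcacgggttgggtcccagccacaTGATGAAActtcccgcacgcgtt
Chac1, chr2:119350992-119351241, plus strand: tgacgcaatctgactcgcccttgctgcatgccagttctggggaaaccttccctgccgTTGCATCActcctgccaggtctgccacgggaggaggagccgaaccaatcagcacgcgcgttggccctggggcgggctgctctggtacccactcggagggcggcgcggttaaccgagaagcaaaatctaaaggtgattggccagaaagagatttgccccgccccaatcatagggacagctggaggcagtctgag
The match begins 23 bases before the start in Asns and 193 bases before it in Chac1. It is present in 2.86% of the windows of all genes, in 2 of 6 of the listed genes that passed and in 8 of 25 of all listed genes with a window.

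Arginine transport stood out in its pathway. Slc7a2, a cationic amino acid transporter that brings arginine into macrophages, read 6.05, 5.81, 6.22 and 6.72 in SAT pools 1 to 4 and 8.32, 8.52, 9.60 and 9.15 in VAT pools 1 to 4. The lowest VAT pool was far above the highest SAT pool, and the change of 2.70 ± 0.17 (adjusted p = 3.24e-07) was similar at 2.49 on day 1 and 2.90 on day 2. Its other 3 probe sets changed by 1.73 to 3.17. Slc7a1, the housekeeping transporter of the same family, changed by 1.12 ± 0.16 (adjusted p = 0.000998). These were 2 rises among 16 measured arginine and polyamine genes, with 0 falls and a median of -0.07; the enzymes of the list that use arginine did not pass. Of 28 genes of interleukin-4 type alternative activation, the state named in the title of the study, 2 rose and 2 fell (median -0.02). Retnla, a secreted marker of that state, read 8.14, 7.95, 8.51 and 8.38 in SAT and 7.22, 7.44, 7.49 and 7.90 in VAT and changed by -0.73 ± 0.14 (adjusted p = 0.0115), and it fell on the knockout arrays too (-0.55, adjusted p = 0.0374). Egr2, a transcription factor induced by interleukin-4, changed by 0.68 ± 0.14, and Tgm2, a transglutaminase, by 0.58 ± 0.11; each call was lost without VAT pool 3 (0.65 and 0.52), and that of Tgm2 also with the mean of its probe sets. The fourth was Clec10a, given above.

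Enzymes of retinoid and steroid metabolism held large changes of opposite sign. Of 18 measured 2 rose and 2 fell (median -0.20, and -0.13 without SAT pool 2). Akr1c18, which inactivates progesterone, read 8.79, 8.99, 8.79 and 8.24 in SAT and 4.96, 4.75, 4.79 and 5.14 in VAT, and changed by -3.79 ± 0.15 (adjusted p = 1.83e-09), the smallest p of all named genes. Adh7, an alcohol dehydrogenase that oxidises retinol, read 9.91, 9.95, 9.77 and 9.40 in SAT and 7.24, 6.94, 7.60 and 7.28 in VAT and changed by -2.49 ± 0.15 (adjusted p = 3.24e-07), its other probe set by -0.88. Both changed the other way on the knockout arrays, by 4.93 and 3.86. Rdh10, which makes retinaldehyde, read 5.30, 5.39, 5.18 and 5.00 in SAT and 6.15, 7.47, 8.38 and 7.91 in VAT and changed by 2.26 ± 0.30 (adjusted p = 0.000678). Aldh1a2, which turns retinaldehyde into retinoic acid, changed by 1.11 ± 0.21 (adjusted p = 0.0107).

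Secreted factors and matrix enzymes gave single large changes. Of 27 growth factors and niche factors 2 rose and 1 fell (median 0.06). Tnfrsf11b, osteoprotegerin, a decoy receptor for the osteoclast factor RANKL, read 5.50, 5.42, 5.58 and 5.82 in SAT and 6.71, 7.47, 8.93 and 7.76 in VAT and changed by 2.14 ± 0.29 (adjusted p = 0.000858); its other probe set changed by 0.51. Fgf2, a fibroblast growth factor, changed by 1.77 ± 0.37 (adjusted p = 0.0175), lost without SAT pool 3 (1.79), SAT pool 4 (1.48) or VAT pool 3 (1.45), and the platelet-derived growth factor Pdgfc by -0.57 ± 0.12 (adjusted p = 0.02), lost without SAT pool 1 (-0.52), SAT pool 4 (-0.54) or VAT pool 3 (-0.48). Of 20 matrix proteases and inhibitors 2 rose, the plasminogen activator Plat (1.41 ± 0.24, adjusted p = 0.00423, its other probe set at 0.02) and Adam12 (0.95 ± 0.20), and 3 fell, the collagenases Mmp8 (-0.95 ± 0.17) and Mmp13 (-0.84 ± 0.16) and Mmp19 (-0.45 ± 0.11). Adam12 lost its call without SAT pool 1 (0.86) or VAT pool 3 (0.80), and Mmp19 without SAT pool 1 (-0.41), 2 (-0.40) or 3 (-0.40) or VAT pool 2 (-0.41) or 3 (-0.46). In prostaglandin and leukotriene metabolism Hpgds, the prostaglandin D2 synthase of blood cells, fell (-0.86 ± 0.15, adjusted p = 0.00452), and Hpgd, which breaks prostaglandins down, rose from below background (1.12 ± 0.26, adjusted p = 0.0291); Hpgd lost its call without SAT pool 3 (1.06) or 4 (0.99) or VAT pool 3 (0.88) or 4 (1.03). Among the other large rises were the elastic fibre proteins Ltbp4 (6.20, 6.30, 5.76 and 6.24 in SAT, 7.54, 7.92, 8.97 and 8.83 in VAT, 2.19 ± 0.24) and Fbln5 (1.76 ± 0.25, its other probe set at 0.03), the kinase Dclk1 (2.02 ± 0.26, its other 7 probe sets at 0.08 to 1.73), the cadherin Fat1 (1.82 ± 0.22), the serine protease Prss23 (2.00 ± 0.37, below background in SAT, its other 2 probe sets at 0.08 and 0.85), the kinase Ak1 (1.67 ± 0.26, its other probe set at -0.12) and tissue factor F3 (1.64 ± 0.32). Thbs2, a matrix thrombospondin, fell from 9.09, 9.18, 9.35 and 7.78 in SAT to 5.68, 7.29, 7.33 and 6.22 in VAT (-2.22 ± 0.39, adjusted p = 0.00657).

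The immediate early genes Jun (-0.86 ± 0.17, adjusted p = 0.0119) and Egr3 (-0.47 ± 0.11, adjusted p = 0.0378), which cells induce within minutes of stimulation, fell among 23 measured, and 0 rose (median 0.09). Egr3 lost its call without SAT pool 1 (-0.44), 2 (-0.45) or 4 (-0.45) or VAT pool 3 (-0.47) or 4 (-0.42). Of 12 genes of cholesterol efflux 1 fell, the phospholipid transfer protein Pltp (-0.67 ± 0.17, adjusted p = 0.0462), which lost its call without SAT pool 1 (-0.75), 2 (-0.53) or 3 (-0.60) or VAT pool 2 (-0.66) or 3 (-0.64). By the limma test no member passed of 8 further lists, whose medians over both days lay between -0.10 and 0.11. They cover cholesterol synthesis (2 of 16 at an unadjusted p under 0.05), fatty acid synthesis (1 of 16), hypoxia and glycolysis (5 of 25), heat shock (2 of 10), Nrf2 antioxidant genes (1 of 14), iron (5 of 16), cell cycle (6 of 23) and ribosomal proteins (1 of 22). Over all genes, 2505 of 17097 had an unadjusted p under 0.05. In the same order, the medians on day 1 were -0.13, -0.04, -0.27, -0.32, -0.36, -0.15, 0.04 and -0.12. On day 2 they were 0.01, 0.36, 0.15, 0.22, 0.15, -0.03, -0.20 and 0.21.

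Genes that mark the position of a fat depot gave no common direction. Of 10 measured genes typical of subcutaneous fat, Sfrp2, a secreted Wnt modulator, read 8.53, 8.07, 8.69 and 7.94 in SAT and 6.92, 7.27, 7.60 and 7.32 in VAT and changed by -1.03 ± 0.24 (adjusted p = 0.0316), and Hoxc8, a homeobox gene, went up in VAT by 0.53 ± 0.11 (adjusted p = 0.0175) with a SAT mean below background. Of 11 visceral genes Gata6 rose, from 5.52, 5.43, 5.57 and 5.71 in SAT to 5.90, 5.87, 6.25 and 6.56 in VAT (0.59 ± 0.12, adjusted p = 0.014), and 7 of the 11 lay below background in both depots. Sfrp2 lost its call without SAT pool 1 (-0.95) or 3 (-0.89) or VAT pool 2 (-1.03) or 4 (-1.05), Hoxc8 without SAT pool 1 (0.51) or VAT pool 2 (0.47) or 3 (0.53), and Gata6 without SAT pool 3 (0.56). On the knockout arrays the subcutaneous list had a median change of 0.52, and 7 of 10 rose there, against 1.92% of all genes.

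RNA of other cell types differed between the depots. Skeletal muscle markers gave the largest falls of the comparison. Of 28 measured 17 fell and 0 rose (median -0.93), and the summed intensity of the list, on the linear scale, was 3347 to 5687 in the SAT pools and 1021 to 1216 in the VAT pools. Tnnc2, the fast troponin C, read 9.79, 9.66, 10.27 and 9.49 in SAT and 6.01, 6.25, 4.82 and 5.47 in VAT and changed by -4.17 ± 0.30 (adjusted p = 9.28e-07). Acta1, skeletal actin, read 9.05, 9.23, 9.84 and 8.51 in SAT and 5.42, 5.25, 4.91 and 5.41 in VAT and changed by -3.91 ± 0.24 (adjusted p = 3.24e-07). Atp2a1, the calcium pump of fast fibres, changed by -3.87 ± 0.20, Pvalb, the calcium buffer parvalbumin, by -3.29 ± 0.23, Ckm, the muscle creatine kinase, by -1.90 ± 0.13 (its other probe set at 0.03), and Eno3, the muscle enolase, by -1.40 ± 0.09. Tnnt3 (-2.29) and Myl1 (-2.19), parts of the fast contractile apparatus, ended below background in VAT, so their sizes are not exact. The muscle markers still gave 15 to 20 falls with any 1 array left out and 13 on the wild-type arrays alone. On the knockout arrays 7 of the 28 rose and 1 fell (median 0.18).

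**Figure D3:**
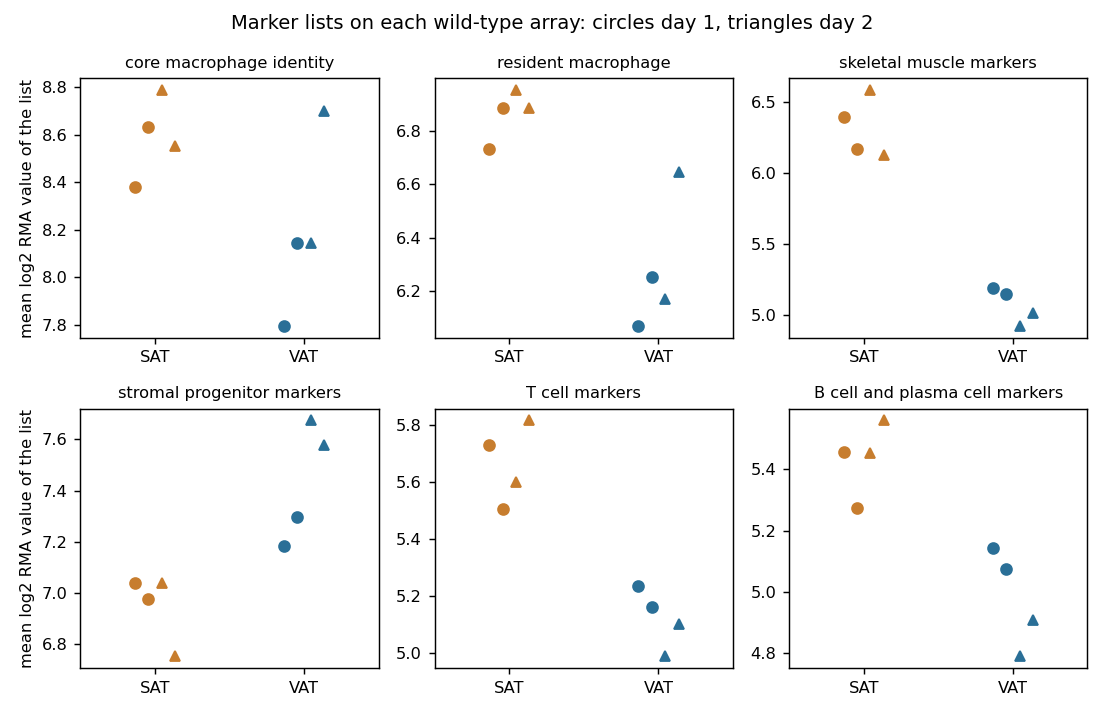
Mean log2 RMA value of 6 marker lists on each of the 8 wild-type arrays, SAT in orange and VAT in blue, circles for day 1 and triangles for day 2. The depots do not overlap for resident macrophage genes and for markers of muscle, stroma, T cells and B cells, and they overlap for core macrophage identity, where VAT pool 4 reaches 8.70 against 8.38 to 8.79 in SAT.

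Lymphocyte markers fell as well. Of 15 T cell markers 6 fell and 0 rose (median -0.20, with -0.33 without SAT pool 2, -0.31 without VAT pool 1 and -0.13 without SAT pool 4), with a summed intensity of 832.5 to 1164 in SAT and 547.8 to 634.1 in VAT and 4 members below background in both. Cd3e, a chain of the T cell receptor complex, read 7.93, 7.19, 7.89 and 8.16 in SAT and 6.30, 6.05, 5.89 and 6.02 in VAT and changed by -1.73 ± 0.21 (adjusted p = 0.000324). The other chains Cd3d (-0.93 ± 0.13) and Cd3g (-1.31 ± 0.20), the costimulator Icos (-1.80 ± 0.27) and the adhesion receptor Cd2 (-1.04 ± 0.19) did likewise, and all 5 passed on the wild-type arrays alone; the sixth, the adaptor Lat (-0.59 ± 0.14), lost its call without SAT pool 1 (-0.56), 3 (-0.59) or 4 (-0.50) or VAT pool 3 (-0.53) or 4 (-0.50). Of 12 B cell and plasma cell markers 4 fell and 0 rose (median -0.32), with a summed intensity of 606.6 to 770.4 in SAT and 416.7 to 526.2 in VAT: the antigen receptor chains Cd79a (-1.06 ± 0.22) and Cd79b (-0.93 ± 0.20), the kinase Blk (-0.91 ± 0.18) and the light chain gene Iglv1 (-0.73 ± 0.17). Blk kept its call without any 1 array. Cd79a lost it without SAT pool 3 or VAT pool 3 (-0.88 without the latter), Cd79b without any array except SAT pool 2 or VAT pool 1 (-0.93 to -0.74), and Iglv1 without SAT pool 1 or 4 or VAT pool 2, 3 or 4 (-0.75 to -0.56). The 4 falls became 2 without SAT pool 1, SAT pool 3, SAT pool 4, VAT pool 2 or VAT pool 4, 1 without VAT pool 3 and 0 without VAT pools 3 and 4 together. On day 1 alone 0 of the 12 passed (median -0.14), and on day 2 alone 8 fell and 0 rose (median -0.68). Over all genes 167 fell on day 1 alone and 1645 on day 2 alone. The immunoglobulin segment Igkj1 (-3.63 ± 0.89, adjusted p = 0.0422) lost its call without any array except SAT pool 2 or VAT pool 1 (-3.94 to -3.15), and such segments share sequence with their neighbours, so its identity is uncertain. Globin genes of red cells fell, Hba-a1 by 2.47 ± 0.48 and Hbb-b2 by 2.41 ± 0.46 (its other 2 probe sets at -2.22 and -0.11), from a list of 9 erythroid and platelet markers of which 3 fell (the platelet chemokine Pf4, also made by macrophages, is the third). The globins have near-identical copies whose signals cannot be separated, and VAT pool 1 read 9.94 for Hba-a1 against 7.82 to 7.93 in the other VAT pools.

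Stromal markers moved up in VAT. Of 18 stromal progenitor markers 7 rose and 1 fell (median 0.57), and the summed intensity was 5946 to 7623 in SAT and 8993 to 14370 in VAT. On day 1 alone 0 of the 18 passed (median 0.29), and on day 2 alone 12 rose and 1 fell (median 0.83). Over all genes 32 rose on day 1 alone and 2577 on day 2 alone. Mfap5, a microfibril protein of progenitors, read 7.88, 7.78, 7.73 and 6.80 in SAT and 8.56, 9.10, 10.02 and 9.78 in VAT and changed by 1.82 ± 0.27 (adjusted p = 0.00176). Fstl1, a secreted glycoprotein, read 10.39, 10.30, 10.16 and 9.90 in SAT and 10.62, 11.07, 11.68 and 11.34 in VAT and changed by 0.99 ± 0.17 (adjusted p = 0.00428). Gsn, the actin-severing protein gelsolin, changed by 0.77 ± 0.10 (1 of its 4 other probe sets at -0.06), Postn, periostin, by 0.68 ± 0.12, the collagen-binding proteoglycans Lum and Dcn by 0.88 ± 0.19 and 0.91 ± 0.21, and Sparc, a collagen-binding glycoprotein, by 0.35 ± 0.07. Thy1, a surface marker shared with T cells, was the one that fell (-0.52 ± 0.12). Calls were lost by Lum without SAT pool 3 (0.77), SAT pool 4 (0.83) or VAT pool 3 (0.80), by Dcn without SAT pool 3 (0.98), VAT pool 3 (0.77) or VAT pool 4 (0.83), by Sparc without SAT pool 3 (0.35) or 4 (0.31) or VAT pool 2 (0.33) or 3 (0.30), and by Thy1 without SAT pool 1 (-0.53), 3 (-0.43) or 4 (-0.54) or VAT pool 2 (-0.53) or 3 (-0.41). The 7 rises became 4 without SAT pool 3 or VAT pool 3, and 0 genes of the list passed on the wild-type arrays alone. Of 16 collagen chains (median 0.19) 0 passed the limma test, 6 having an unadjusted p under 0.05, against 2505 of all 17097 genes. Cxcl12, Il6, Cxcl1, Fgf2, Rdh10, Ltbp4, Fbln5 and the other large rises moved in the same direction as these markers, and the part of stromal cells in them was not tested.

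Other cell types gave few calls. Of 20 endothelial markers 0 passed the limma test, 4 had an unadjusted p under 0.05 and 17 had a positive change. Over all genes, 2505 of 17097 had such an unadjusted p. Cdh5, the cadherin of endothelial junctions, read 6.62, 6.56, 7.04 and 7.17 in SAT and 7.25, 8.77, 7.05 and 8.85 in VAT (1.13 ± 0.48, adjusted p = 0.286), with pools 2 and 4 of VAT high. Eng and Tek, further endothelial receptors, changed by 0.41 ± 0.11 (adjusted p = 0.0572) and 0.61 ± 0.21 (adjusted p = 0.148). The mesothelial markers Wt1, Msln and Igfbp6 changed by 0.21, 0.13 and 0.27 without passing, the first pair below background. Fscn1, of mature dendritic cells, rose by 0.77 ± 0.15 (its other 3 probe sets at 0.02 to 1.25), 1 of 10, lost without VAT pool 3 (0.69), and Retn, which encodes resistin, by 0.61 ± 0.14, 1 of 16 adipocyte markers, lost without SAT pool 1 (0.59), 2 (0.56) or 3 (0.59) or VAT pool 2 (0.62) or 4 (0.60). Of 11 neutrophil markers Mmp8 fell. The myelin genes Mbp (-0.45 ± 0.08, adjusted p = 0.00657) and Pmp22 (-0.80 ± 0.17, adjusted p = 0.0186) fell among 6 Schwann cell and nerve markers. Pmp22 also fell on the knockout arrays (-0.73), and its call on the wild-type arrays was lost without SAT pool 3 (-0.76) or VAT pool 3 (-0.69). None passed among markers of mast cells (4 of 12 at an unadjusted p under 0.05), smooth muscle (1 of 9), epithelium (1 of 17), natural killer and innate lymphoid cells (0 of 12), eosinophils (0 of 6) and mesothelium (0 of 13). In the seminal vesicle list Svs4 read 3.90, 7.30, 3.79 and 4.05 in SAT and 3.88, 3.76, 3.76 and 3.78 in VAT, so that SAT pool 2 alone stood high.

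The rises were larger on day 2. All 486 genes had the same sign on both days. The median change of the 260 genes that rose was 0.44 on day 1 and 1.05 on day 2, and 236 of them changed more on day 2. For the 226 that fell the medians were -0.74 and -0.66, and 104 changed more on day 2. The difference itself was tested with a mean for each group and day: 4388 genes (25.7%) had a depot difference that differed between the days, among them 120 of the 486, of which 98 were rises that were larger on day 2. Ltbp4 changed by 1.48 on day 1 and 2.89 on day 2 (adjusted p of the difference = 0.00846), Gbp3 by 0.69 on day 1 and 2.06 on day 2 (adjusted p = 0.00777) and Mfap5 by 1.00 on day 1 and 2.63 on day 2 (adjusted p = 0.0116). Cxcl13 changed by -0.56 on day 1 and -1.72 on day 2 (adjusted p = 0.00545) and Adh7 by -2.84 on day 1 and -2.15 on day 2 (adjusted p = 0.0436), so that one fall grew and the other shrank. Day 2 also holds the 2 VAT arrays with the widest spread of values, and the part of that spread in the larger day 2 changes was not tested beyond the count of 1502 with it as a term. Day 1 alone gave 199 genes, 32 higher and 167 lower, and day 2 alone 4222, 2577 higher and 1645 lower.

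**Figure D4:**
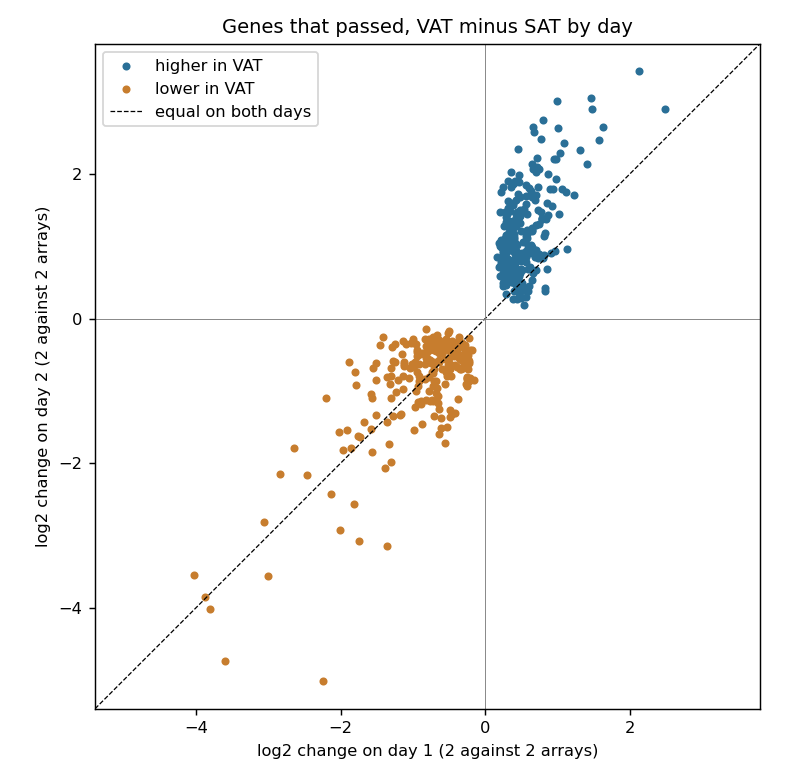
Log2 change VAT minus SAT on day 1 (horizontal) and day 2 (vertical) for the 486 genes that passed, each from 2 against 2 arrays, blue where higher and orange where lower in VAT, with a dashed line where both days are equal. Most blue points lie above the line, since 236 of 260 rises were larger on day 2, and the orange points lie on both sides of it.

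Set against the knockout, the depot difference differed for 722 genes (4.22%), and 295 of these are among the 486; without VAT pool 1 the 722 became 1310. The comparisons in the 2 genotypes share no array. On the knockout arrays 738 genes (4.32%) passed. Slc7a2 changed by 2.70 on the wild-type and -2.56 on the knockout arrays (adjusted p of the difference = 2.40e-09), Cxcl10 by 1.77 and -1.34 (adjusted p = 9.29e-08), and Akr1c18 by -3.79 and 4.93 (adjusted p = 1.58e-12). Folr2, in contrast, changed by -1.73 and 0.04 (adjusted p = 3.19e-05), and Trib3 by 1.24 and -0.09 (adjusted p = 0.0015). The 23 genes that passed in both genotypes in 1 direction comprise 20 falls and 3 rises. The rises were Chac1, the chloride channel Clic5 (0.40 and 0.54) and the mitochondrial dehydrogenase Aldh6a1 (0.48 and 0.48), and Clic5 and Aldh6a1 were named after their values were seen. The call of Clic5 on the wild-type arrays was lost without any array except VAT pool 1 or 4 (0.28 to 0.42), and that of Aldh6a1 was lost without SAT pool 3 (0.45). Retnla and Pmp22 were among the 20 falls.

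**Figure D5:**
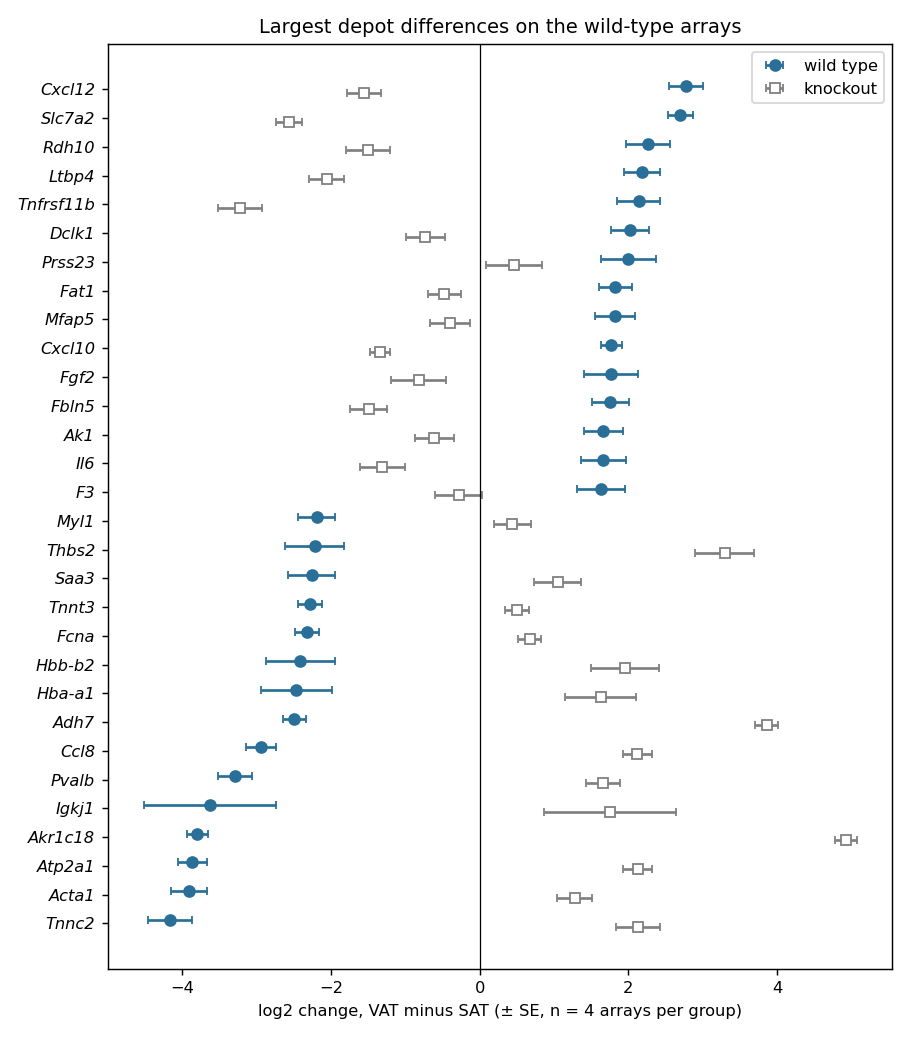
Log2 change VAT minus SAT, ± SE of the fit with 4 arrays per group, of the 15 largest rises and 15 largest falls on the wild-type arrays (filled circles), beside the change of the same genes on the knockout arrays (open squares). The knockout values lie on the other side of 0 for all of them except Prss23, which changed by 2.00 and 0.46.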

How the data were processed

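Expression in macrophages of mouse fat was measured on Affymetrix arrays, 4 for each of 2 depots and 2 genotypes. Per the submitters' processing notes, RMA in the affy package gave the deposited values, which are on the log2 scale with 1 value for each probe set; versions are not given in the sources used here. RMA subtracts background and gives all arrays the same distribution of probe values, so a shift shared by most genes would not be seen, and low values are compressed toward the background. The 45141 probe sets include 104 controls; 28898 name 1 gene, 551 several and 15588 none in the platform annotation, and 28689 were matched by gene ID to RefSeq (GRCm38.p6). For each of 17097 genes, of which 7180 have several probe sets, the one brightest on average across the 16 arrays was used.

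The model, in limma 3.58.1 under R 4.3.3, covered all 16 arrays with 1 mean per group, day as a term and no array weights, with Benjamini-Hochberg adjustment over all genes (two-sided, threshold 0.05). The main fit of the wild-type depot difference was tested on simulated data in which all arrays of a gene had the same spread. The contrasts between genotypes and between days and the alternatives were not tested in this way. The members, gene lists and naming rule were chosen with earlier results of these data known. Named were the 15 largest rises and 15 largest falls that passed with 1 sign on both days, leaving out unnamed gene models; up to 5 passing members of a list by p, or up to 3 where none passed; defining macrophage markers; Sucnr1 and Lyz2. Further passing members of the lists were named after their values were seen. Where the 4 arrays of a depot average below 4.78, that gene's change is not exact. Alternatives covered a fit without day, fits to a single day, a block for the pool number, the wild-type arrays alone, a filter on dim probe sets, the mean of probe sets, scaling, array weights, variance settings, the spread of values on an array as a term, and leaving out arrays.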

Additional observations from a re-analysis of the deposited data

Results flagged for a closer look

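In 12 of the 242 groups of 4 arrays looked at (the named genes in each depot), 1 array stood apart from the other 3 by Dixon's criterion, and chance alone gives about 1 in 20. The gaps lie on different arrays. SAT pool 1 read 7.36 for Fcna against 7.75 on all others. SAT pool 2 read 7.30 for Svs4, a seminal vesicle gene, against 3.79 to 4.05, and 5.86 for H2-Ob against 6.15 to 6.19. SAT pool 4 read low for Thbs2 (7.78 against 9.09 to 9.35) and for the stromal gene Mfap5 (6.80 against 7.73 to 7.88), and high for Vcan (6.82 against 6.37 to 6.44). VAT pool 1 read 9.94 for the globin Hba-a1 against 7.82 to 7.94, and 3.88 for Svs4 against 3.76 to 3.78, all 4 below background. VAT pool 2 read 6.26 for Hpgds against 5.64 to 5.70, and VAT pool 3 read 4.13 for Mmp8 against 4.44 to 4.49, again below background. VAT pool 4 read 9.94 for Ccl6 against 9.28 to 9.38 and 10.97 for Ccl9 against 10.32 to 10.42. Each array was kept in the values given above.

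Over all 17097 genes the depot difference differed between the genotypes for 722 (4.22%), and 100 passed in both genotypes with opposite signs. Named genes were mostly chosen by their wild-type change, which enters this difference, so a larger share among them was partly fixed beforehand. The depot difference differed between the genotypes for 91 of the 121 named genes, and for 38 of these it passed in both genotypes with opposite signs. The size of the difference, the wild-type change minus the knockout change on the log2 scale, is given for each of them, with limma adjusted p between 1.58e-12 and 0.00295. Among muscle genes it was -6.29 for Tnnc2, -5.99 for Atp2a1, -5.19 for Acta1, -4.95 for Pvalb and -2.52 for Ckm. Among macrophage and complement genes it was -5.06 for Ccl8, -2.99 for Fcna, -4.06 for C4b, -2.60 for Slpi and -1.76 for Plac8. It was -8.72 for Akr1c18, -6.36 for Adh7, 3.76 for Rdh10 and 2.08 for Hpgd among metabolic enzymes, and 5.26 for the transporter Slc7a2. Chemokines gave 4.33 for Cxcl12, 3.11 for Cxcl10, 3.21 for Ccl5, 1.59 for Cx3cl1, 1.45 for Ccl2 and -2.88 for Cxcl13. Inflammatory and interferon genes gave 2.97 for Il6, 2.72 for Icam1, 1.87 for Gbp2 and 0.78 for Ifit3, and Tgm2 gave 1.05. Matrix and secreted proteins gave 5.36 for Tnfrsf11b, 4.24 for Ltbp4, 3.25 for Fbln5, 1.20 for Vcan, -5.51 for Thbs2 and -3.33 for Sfrp2. T cell genes gave -2.54 for Cd3e, -1.42 for Cd3d and -3.05 for Icos, while Fscn1 of mature dendritic cells gave 1.53, the globin Hbb-b2 -4.37 and the homeobox gene Hoxc8 0.95.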

How the results depend on the processing

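No named gene that passed changed sign under the alternatives run. This was largely fixed beforehand, since all 486 had the same sign on both days and several alternatives altered only the variance. The medians of 32 of the 53 lists changed sign under at least 1 alternative. Those of the amino acid response and of type I interferon genes did so on day 1 alone (-0.02 and -0.00). The 486 genes that passed became 212 (98 higher, 114 lower) without the day term, 199 on day 1 alone, 4222 on day 2 alone, 60 on the wild-type arrays alone, 315 after centring each array on its median, 1116 after quantile normalization and 1502 (507 higher, 995 lower) with array spread as a term. On the wild-type arrays of 1 day, a choice made after seeing the data, 34 genes passed on day 1 and 1218 on day 2. With array weights 686 passed (457 higher, 229 lower), and without VAT pools 3 and 4 together 411 (101 higher, 310 lower). Leaving out 1 array gave 231 to 1711 genes, and 560 to 1310 in place of the 722 whose depot difference differed between genotypes. The 722 became 455 without the day term, 330 on day 1, 1904 on day 2, 1209 with array weights and 1694 with array spread as a term. On the wild-type arrays alone 74 of the 106 named genes that passed lost their call. The causes were not tested. The deviations of same-numbered pools correlated at 0.32, -0.29, 0.47 and -0.48, and within days at 0.38 for pools 1 and 2 and -0.02 for pools 3 and 4. Each within-day value rests on 2 pools per depot, and such correlations cannot exclude that same-numbered pools share animals. Not every pair deviated together, and the pool numbers were not taken to pair the samples. With the pool number as a replicate block in place of day, 362 genes passed for the depots, 353 of them shared with the 486, and 618 for the genotypes, and 6 named genes lost their call. A gene below background in 1 depot has only an inexact change, and 4 arrays a group limit all of them.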
